A study of Mus musculus with 14 samples.

Results

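The cell cycle genes were followed through 3 early stages of T cell development in 4 genotypes and in 2 leukemias. The set holds 38 genes, of which 17 act at the G1/S transition and in DNA replication and 21 act in G2 and mitosis. Members were matched by gene symbol through the RefSeq accession of each probe, and for each gene the probe of the highest mean signal stands. Of the 38 genes, 37 were well above local background on at least 2 of 14 arrays and were tested among 27056 features, 14243 of them named genes. Ccne2, which encodes cyclin E2, was above background on 0 arrays and has no value. Of the tested members, 32 were above background on all 14 arrays. The exceptions were Cdc6 and Tyms on 13 arrays, Ttk on 10, Cdk1 on 8 and Aurkb on 7.

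All cells were CD4-CD8- cells of the thymus, sorted from lethally irradiated CD45.1+ wild-type mice that had received bone marrow on the C57BL/6 background. The donor marrow carried Cre-ERT2 alone (called WT here), Ezh2flox/flox with Cre-ERT2, p53flox/flox with Cre-ERT2, or both floxed genes with Cre-ERT2, so that every group carried the inducible Cre. Ezh2 is the histone methyltransferase of Polycomb repressive complex 2, and p53 is the tumour suppressor encoded by Trp53. Deletion took place at 4 weeks after transplantation. Cells of mice without leukemia were taken at 3 months. Their stages were the DN1 gate (CD44+CD25-), the DN2 gate (CD44+CD25+) and the DN3 gate (CD44-CD25+). There was 1 array for each genotype and stage. Leukemic cells came from the DN2 gate of 2 double-deleted mice, numbered 13 and 19, with early T cell precursor acute lymphoblastic leukemia (ETP-ALL), for which no time after transplantation was given. A treatment label names bone marrow as the tissue of the cells, while the design text and the sample labels name the thymus, which is followed here. The labels do not say how many mice gave the cells of an array, whether the stages of a genotype came from the same mice, or which cells of the recipients other than donor cells remained.

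Cells that commit to division release E2F factors from the retinoblastoma family of repressors, and E2F then turns on genes for nucleotide synthesis, origin licensing and replication. Genes of G2 and mitosis are held down in resting cells by the DREAM complex and switched on later by MuvB with B-Myb and FoxM1, through CHR and CCAAT elements near their start sites. p53 represses many of these genes indirectly, through the CDK inhibitor p21 (Cdkn1a) and DREAM. In the thymus, early progenitors divide several times between DN1 and DN2 and on to DN3, where cells stop dividing while they rearrange the T cell receptor beta locus and resume when that succeeds.

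Promoter sequences are shown for 5 members because the G1/S and G2/M groups, which are described apart throughout, differ in these motifs. RefSeq start sites (GRCm38.p6) were matched for 31 of the 38 members, giving 33 windows from 250 bases before to 50 bases after the start. Windows are written 5′ to 3′ in the direction of the gene. Capitals mark an E2F motif (TTTCGCGC or TTTGGCGC), a CHR motif (TTTGAA or TTCGAA) or a CCAAT box (CCAAT, or ATTGG where it lies on the other strand), and matches that overlap run together. Mcm5 and Mcm6, subunits of the replicative helicase, lie at chr8:75109259-75109558 on the plus strand and chr1:128359656-128359955 on the minus strand. Cdc20, activator of the anaphase-promoting complex, lies at chr4:118437294-118437593, Cdk1, the mitotic kinase, at chr10:69352863-69353162 and Ccnb2, cyclin B2, at chr9:70421505-70421804, all on the minus strand.
Mcm5: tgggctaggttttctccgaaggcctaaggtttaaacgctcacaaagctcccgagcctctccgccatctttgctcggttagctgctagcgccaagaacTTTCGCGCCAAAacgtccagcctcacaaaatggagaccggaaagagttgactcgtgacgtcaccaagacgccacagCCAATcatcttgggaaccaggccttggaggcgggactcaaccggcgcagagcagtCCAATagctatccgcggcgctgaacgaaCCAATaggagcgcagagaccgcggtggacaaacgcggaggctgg
Mcm6: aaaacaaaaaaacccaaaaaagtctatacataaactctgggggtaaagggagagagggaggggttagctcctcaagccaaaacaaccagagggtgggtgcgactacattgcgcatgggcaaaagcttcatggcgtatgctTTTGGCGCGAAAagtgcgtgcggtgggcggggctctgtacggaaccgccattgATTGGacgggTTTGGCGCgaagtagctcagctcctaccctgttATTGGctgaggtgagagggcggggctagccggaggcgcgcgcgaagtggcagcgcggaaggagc
Cdc20: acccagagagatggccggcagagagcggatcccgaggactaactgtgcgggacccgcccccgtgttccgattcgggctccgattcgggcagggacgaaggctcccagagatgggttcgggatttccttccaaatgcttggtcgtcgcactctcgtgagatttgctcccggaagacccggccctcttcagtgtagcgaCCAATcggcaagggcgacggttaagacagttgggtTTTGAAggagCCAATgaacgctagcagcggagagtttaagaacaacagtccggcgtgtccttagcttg
Cdk1: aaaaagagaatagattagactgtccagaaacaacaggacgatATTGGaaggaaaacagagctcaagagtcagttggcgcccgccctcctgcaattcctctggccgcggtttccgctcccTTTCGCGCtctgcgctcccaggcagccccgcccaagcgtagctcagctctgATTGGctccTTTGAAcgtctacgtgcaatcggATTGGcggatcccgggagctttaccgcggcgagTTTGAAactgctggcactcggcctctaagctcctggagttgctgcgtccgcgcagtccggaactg
Ccnb2: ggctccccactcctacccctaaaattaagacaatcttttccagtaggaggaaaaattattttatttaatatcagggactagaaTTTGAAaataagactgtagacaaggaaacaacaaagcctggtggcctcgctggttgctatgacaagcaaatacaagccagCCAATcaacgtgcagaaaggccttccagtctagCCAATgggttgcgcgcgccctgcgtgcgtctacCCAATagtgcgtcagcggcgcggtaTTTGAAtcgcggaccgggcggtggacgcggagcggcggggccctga

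In these windows Mcm5 held TTTCGCGC at -153 from the start and Mcm6 held TTTGGCGC at -110 and -47 on the gene's own strand. Cdc20 held TTTGAA at -18 between CCAAT boxes at -53 and -8. Ccnb2 held TTTGAA at -167 and 4, with CCAAT boxes at -87, -54 and -21. Cdk1 held all 3 kinds, with TTTCGCGC at -131, TTTGAA at -71 and -15, and CCAAT on the other strand at -208, -80 and -48. Searched on both strands, the E2F motif was in 6 of 17 G1/S windows (35.3%) and 1 of 16 G2/M windows (6.25%), against 0.813% of all 32851 RefSeq promoter windows of the same length. A CHR motif was in 4 of 17 G1/S windows (23.5%) and 12 of 16 G2/M windows (75%), against 19.2% of all windows. CCAAT was in 12 of 17 (70.6%) and 14 of 16 (87.5%), against 37.4%, and CHR with CCAAT in 23.5% and 75%, against 7.52%. The median GC content was 57.3% in the G1/S windows, 57.8% in the G2/M windows and 52.7% in all windows. A match to these letters describes the window and is not a measured binding site. TTCGAA reads the same on both strands, and 1 overlap between motifs of different kinds was found among the members.

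The arrays lay on 4 slides. Slide 1 held the 3 WT arrays and the double-deleted DN2 and DN3 arrays, slide 2 held the 6 Ezh2-deleted and p53-deleted arrays, slide 3 the double-deleted DN1 array, and slide 4 both leukemias. Levels are given as log2 of the processed signal minus log2 of the 75th percentile of that array, which was 70.3 to 141 on slide 2 and 298 to 591 on the others. Between 40.3% and 50.4% of probes were above background on an array, and 0 were saturated. Stage steps within WT, Ezh2-deleted or p53-deleted cells, double-deleted against WT cells at DN2 and DN3, and Ezh2-deleted against p53-deleted cells were measured within a slide. In the comparisons of WT or double-deleted cells with either of the other genotypes, and of the leukemias with other cells, slide and group cannot be told apart. Trp53 was at -0.01, 0.87 and 1.12 on the WT DN1, DN2 and DN3 arrays, below background on the 3 p53-deleted arrays and at -4.06, -2.59 and -1.11 on the double-deleted arrays. Ezh2 was at 2.56 to 3.69 on the Ezh2-deleted and 2.23 to 4.26 on the WT arrays, and its level checks nothing, since the labels do not say whether its probe lies in the deleted part. Xist was above background on 3 arrays, all 3 Ezh2-deleted, and Ddx3y, Eif2s3y and Uty were above background on 11 arrays, 0 of them Ezh2-deleted, so the sex of the cells moved with that genotype and its part in the values was not tested.

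Of the members, 8 had several probes, 49 probes in all for the 38 genes, and some probes of a gene disagreed between slides. For the probe used for Cdk1 the slide 2 mean minus the slide 1 mean (6 and 5 arrays) was -6.80 on the log2 scale, for another Cdk1 probe it was -4.37, and for the last, above background on 13 of 14 arrays, it was 0.41. For Birc5, survivin of the chromosomal passenger complex, this difference was 0.32 for the probe used and -3.91 and -0.20 for the others. For Cdc6, which loads the helicase, it was 0.12 for the probe used and -2.97 for the other. Aurkb, the passenger complex kinase, had 1 probe, with a difference of -3.13. Differences of these genes between slides carry this limit.

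**Figure D1:**
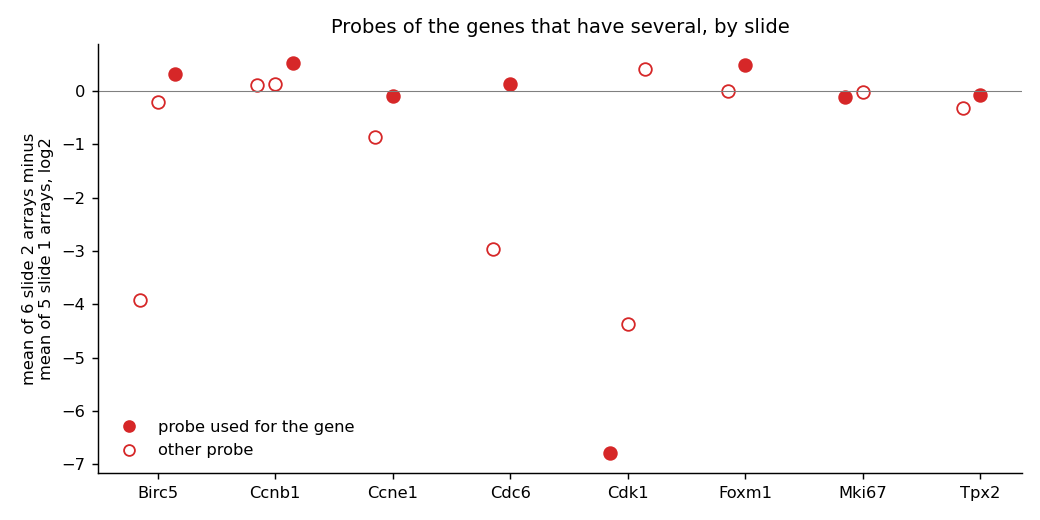
Difference between the mean log2 level on the 6 arrays of slide 2 and on the 5 arrays of slide 1, for each probe of the 8 members with several probes. Filled points are the probe used for the gene, open points the others; probes of Cdk1, Birc5 and Cdc6 lie as low as -6.80 beside probes of the same gene near 0.

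From DN1 to DN2 the cell cycle genes were higher in WT, Ezh2-deleted and double-deleted cells and were not in p53-deleted cells. In WT cells the median DN2 minus DN1 difference of the 37 genes was 2.30 on the log2 scale, a ratio of 4.93, and 36 of 37 were over 2-fold higher, where 13.7% of all features were. In Ezh2-deleted cells the median was 1.85, a ratio of 3.60, with 31 of 37 over 2-fold higher (18.9% of all features). In double-deleted cells it was 0.89, a ratio of 1.85, with 12 of 37 over 2-fold higher (7.65% of all features), though the DN1 array of this genotype lay on another slide than its DN2 array. In p53-deleted cells the median was -0.26, with 0 of 37 over 2-fold higher (6.99% of all features) and 34 of 37 lower at DN2. The share of all features lower at DN2 in p53-deleted cells is not given. In bulk RNA, a smaller share of dividing cells and less RNA per cell cannot be told apart.

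All 37 members were higher at DN2 in each of WT, Ezh2-deleted and double-deleted cells, which 32.8% of features were. Of the 37, 34 were higher in those genotypes and lower in p53-deleted cells, a pattern that 21.1% of features showed. The other 3, Cdc6, Aurkb and Ttk, were higher in 4 of 4 genotypes, as 11.6% of features were, with p53-deleted differences of 0.06, 0.03 and 0.15. For Cdc6 the second probe was lower at DN2 in p53-deleted cells, at -1.83 at DN1 and -2.23 at DN2. Aurkb was below background on the Ezh2-deleted and p53-deleted arrays, and Ttk on the Ezh2-deleted arrays. Directions of these 2 genes there are not measured steps. Both phases took part. The WT medians were 2.14 for the 16 G1/S genes and 2.44 for the 21 G2/M genes, and the p53-deleted medians were -0.26 and -0.28. In WT cells the differences ran from 0.71 for Tyms, thymidylate synthase, to 4.55 for Cdc6, whose DN1 value was below background. The other Cdc6 probe, above background on 14 arrays, was at -1.19 and 1.84 in WT DN1 and DN2 cells, a smaller step. In Ezh2-deleted cells they ran from 0.58 for Aurkb, below background at both stages, to 2.62 for Cdc6. In double-deleted cells the range was 0.49 for Cenpe, a kinetochore motor, to 1.91 for Ttk, the spindle checkpoint kinase MPS1. In p53-deleted cells it was -0.94 for Cdk1, by a probe below background at both stages, to 0.15 for Ttk. The Cdk1 probe above background on 13 arrays was at -2.81 and -2.27 at these stages, so the direction differed between probes. In WT cells that probe was at -2.84 and -2.98, slightly lower at DN2. There the probe used was higher at DN2 by 2.43 and the remaining Cdk1 probe by 1.80.

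**Figure D2:**
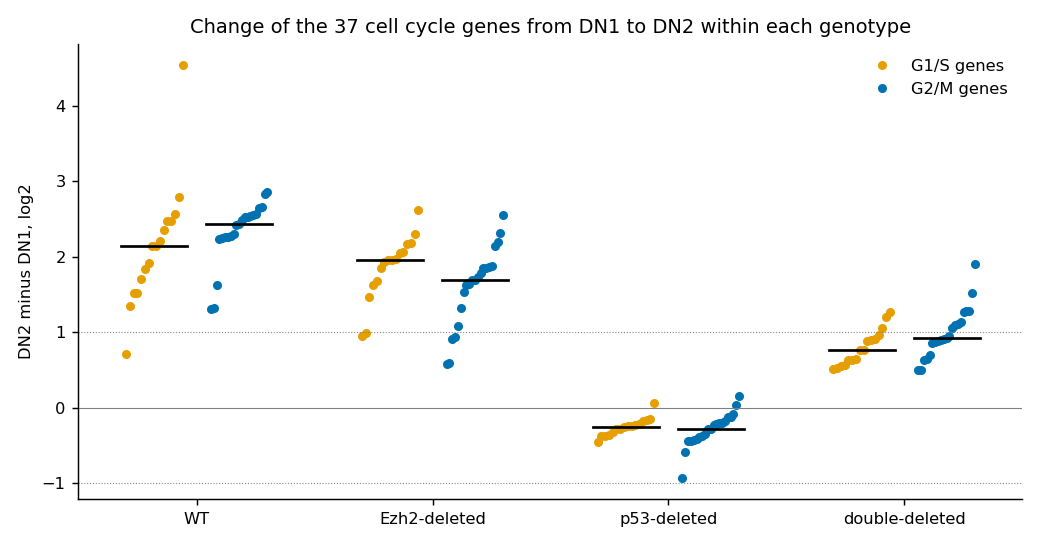
DN2 minus DN1 difference in log2 level within each genotype, 1 array per stage. Each point is 1 of the 37 cell cycle genes, G1/S and G2/M genes apart; black lines are medians, and dotted lines mark a 2-fold difference. The p53-deleted points lie between -0.94 (Cdk1, below background at both stages) and 0.15, while the WT points lie between 0.71 and 4.55 (Cdc6, below background at DN1).

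Replication genes show the pattern array by array. Mcm5 was at 3.32, 5.80 and 5.89 in WT DN1, DN2 and DN3 cells, 4.23, 6.19 and 5.63 in Ezh2-deleted cells, 4.90, 4.65 and 5.38 in p53-deleted and 4.74, 6.01 and 5.85 in double-deleted cells. Cdc45, which joins the helicase to fire origins, was at -1.76, -0.24 and -0.35 in WT, -2.05, 0.12 and -0.23 in Ezh2-deleted, -0.94, -1.18 and -0.19 in p53-deleted and -1.35, -0.15 and -0.42 in double-deleted cells. For both genes every DN1 array was below every DN2 and DN3 array of the 3 genotypes other than p53-deleted, while the p53-deleted DN2 array stayed among the DN1 arrays. Cdc6 was at -3.68, 0.87 and 0.28 in WT, -1.24, 1.39 and 0.57 in Ezh2-deleted, -0.70, -0.65 and 0.04 in p53-deleted and -0.14, 0.75 and 0.65 in double-deleted cells. Its p53-deleted DN2 level was below the Ezh2-deleted DN2 level on the same slide. E2f1, the activator that drives these genes, was at 0.44, 3.24 and 3.08 in WT, 1.98, 4.02 and 3.49 in Ezh2-deleted, 2.80, 2.42 and 3.12 in p53-deleted and 1.96, 2.92 and 2.94 in double-deleted cells.

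Mitotic genes followed the same course. Mki67, the proliferation antigen Ki-67, was at 3.55, 6.07 and 5.90 in WT DN1, DN2 and DN3 cells, 4.98, 5.91 and 5.40 in Ezh2-deleted, 5.51, 5.06 and 5.90 in p53-deleted and 5.69, 6.58 and 5.74 in double-deleted cells. Ccnb1, cyclin B1, was at 0.99, 3.82 and 3.73 in WT, 2.48, 4.67 and 3.73 in Ezh2-deleted, 4.14, 3.71 and 4.13 in p53-deleted and 3.30, 4.36 and 3.55 in double-deleted cells. The p53-deleted DN1 level of Ccnb1 was above the WT DN2 level, and that of Mki67 was below it. The p53-deleted DN2 level of each gene was below that genotype's DN1 level. Plk1, the kinase of mitotic entry, was at 2.13, 4.66 and 5.08 in WT, 3.36, 5.22 and 4.15 in Ezh2-deleted, 4.18, 3.97 and 4.72 in p53-deleted and 4.43, 5.69 and 4.81 in double-deleted cells, with the same relation between DN1 and DN2.

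In the fit of stage over all 4 genotypes, 0 of 37 members were called at an adjusted p under 0.05 (limma, Benjamini-Hochberg), against 0.174% of features called higher, and the lowest adjusted p of a member was 0.145. At an unadjusted p under 0.05, 31 of 37 were higher, 14 of 16 G1/S and 17 of 21 G2/M genes, against 11.4% of features. The median difference was 1.17, against 0.13 over all features. Cdc45 differed by 1.17 ± 0.34 (SE, 95% interval 0.39 to 1.94, limma adjusted p = 0.145), Mcm5 by 1.36 ± 0.40 (adjusted p = 0.147) and Cdc6, below background in WT DN1 cells, by 2.03 ± 0.63 (0.60 to 3.46, adjusted p = 0.162). The count changed when p53-deleted arrays were left out. Without their DN1 array 17 members were called, and without their DN2 array 7. Without all 3 p53-deleted arrays, an alternative chosen after seeing the data, 22 were called. The share of all features called in these refits is not given, so the counts cannot be read as particular to the members. The lower p53-deleted step is itself part of the spread behind the p values of the full fit. Without the WT DN1 array 0 were called and the median was 0.73.

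Whether the DN1 to DN2 difference depended on p53 was tested as an interaction, with p53-deleted and double-deleted cells against WT and Ezh2-deleted cells. No member was called (limma, 0 of 37), as against 0.0037% of features, and 24 of 37 had a lower step in p53-deleted and double-deleted cells at an unadjusted p under 0.05, 13 of 16 G1/S and 11 of 21 G2/M genes, against 8.45% of features. On data simulated at the residual spread of the additive stage and genotype fit, this test called 0 of 50 features changed by 2 on the log2 scale. That spread includes any dependence of the step on p53, so the simulation may understate what the test can call. The lack of calls still does not show that such differences were absent. The estimate was negative for 37 of 37 members, with a median of -1.71, against -0.11 over all features. It was -1.71 ± 0.40 for Pcna, the replication clamp (95% interval -2.67 to -0.74, limma adjusted p = 0.317), -3.11 ± 0.76 for Cdc6, whose WT DN1 value was below background, and -2.14 ± 0.56 for Rrm2, a ribonucleotide reductase subunit, both with the same adjusted p. Pcna was at 5.19, 6.90 and 6.89 in WT DN1, DN2 and DN3 cells, 5.0, 6.85 and 6.51 in Ezh2-deleted, 6.05, 5.68 and 6.20 in p53-deleted and 6.33, 6.84 and 6.72 in double-deleted cells. Rrm2 was at 2.30, 4.87 and 5.23 in WT, 4.60, 6.55 and 6.19 in Ezh2-deleted, 5.25, 4.97 and 5.82 in p53-deleted and 4.95, 5.48 and 5.26 in double-deleted cells. For both genes the DN1 arrays of p53-deleted and double-deleted cells were the highest of the 4 DN1 arrays.

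Markers of other cells and of the gates moved with the stage. Of the 8 NK cell markers, 8 were above background on every DN1 array, with a summed log2 level of 15.2 to 38.9, against 2 to 8 on the DN2 arrays (-22.7 to 0.42) and 2 on each DN3 array. At DN2 the p53-deleted array alone had all 8 above background, with a mean level of 0.05, against -2.21, -0.83 and -2.83 in WT, Ezh2-deleted and double-deleted cells. Cd44 was higher at DN2 than DN1 in p53-deleted cells (2.66 and 3.47) and lower in the others (2.81 and 1.09 in WT). Il2ra, which encodes CD25, was at 5.19 on the p53-deleted DN2 array and at 6.35 to 7.55 on the other DN2 arrays. Its lower level in p53-deleted cells was not particular to DN2, since at DN3 it was at 5.21, against 6.37 to 7.22 on the other DN3 arrays. The mean of 5 measured dendritic cell markers was 4.27 and 4.45 at DN1 and DN2 in p53-deleted cells and 4.32 and 3.02 in WT cells. In Ezh2-deleted cells it was 5.69 and 4.07, and in double-deleted cells 3.17 and 2.66. Means of the myeloid and B cell markers were lower at DN2 than at DN1 in all 4 genotypes. In p53-deleted cells they were -1.20 and -2.07 (myeloid) and -1.34 and -2.90 (B). The 5 markers of double-positive T cells had means of 1.61 and 1.67 at DN1 and DN2 in p53-deleted cells, against 1.74 and 0.15 in WT, 0.20 and -0.55 in Ezh2-deleted and 1.38 and 0.18 in double-deleted cells. The 10 early T cell markers were all above background on the 12 non-leukemic arrays. The part of these cells in the p53-deleted DN2 values was not tested.

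The other genes of the pathway had similar differences. Among 25 other replication genes 0 were called from DN1 to DN2 (limma), 21 were higher at an unadjusted p under 0.05, and the median was 1.20, where 0.174% and 11.4% of features were higher by these rules. Among 32 other mitotic genes 0 were called, 24 were higher at that p, and the median was 1.09. Of 21 regulators (E2F, retinoblastoma and DREAM components and CDK inhibitors) 1 rose, Cdkn1a, 10 were higher at an unadjusted p under 0.05 and 1 was lower. Cdkn1a, encoding p21, was at -0.49, 2.83 and 2.27 in WT DN1, DN2 and DN3 cells, 0.23, 2.71 and 3.17 in Ezh2-deleted, -1.62, 1.60 and 1.85 in p53-deleted and -0.01, 1.81 and 2.49 in double-deleted cells. Every DN1 level was below every DN2 and DN3 level, in p53-deleted cells too. The difference was 2.71 ± 0.28 (SE, limma adjusted p = 0.00229), and it was 1.64 and no longer called as the mean of all Cdkn1a probes. Within slide 1 it was 3.01 and within slide 2 it was 2.85, neither called with these fewer arrays.

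**Figure D3:**
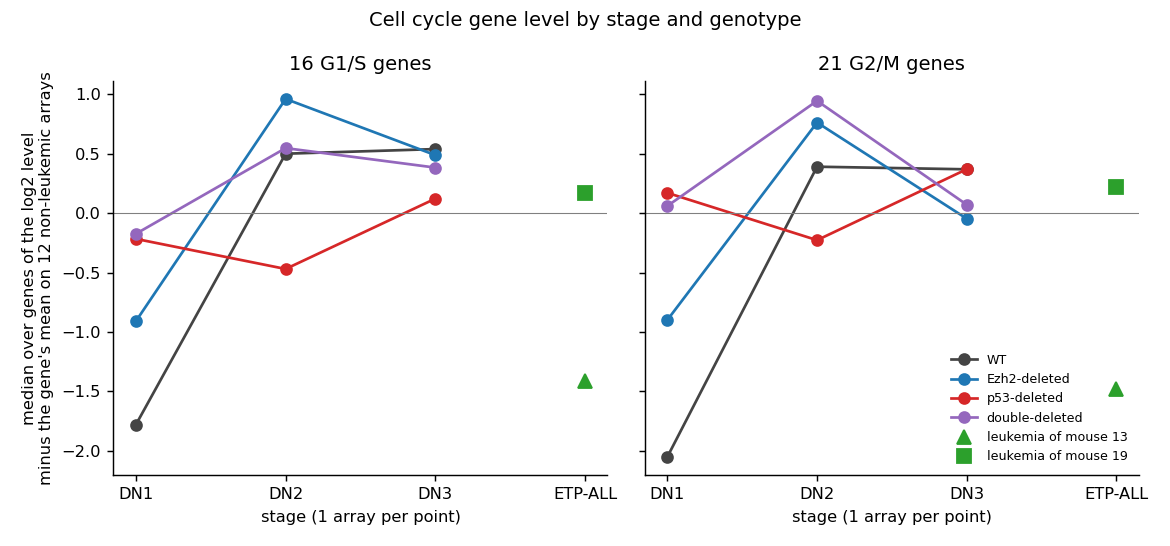
Median over the 16 G1/S genes (left) and 21 G2/M genes (right) of the log2 level, after each gene's mean on the 12 non-leukemic arrays was subtracted, by stage and genotype. Each point is 1 array and has no error bar; the WT DN1 points are the lowest, at -1.78 and -2.05, and the p53-deleted line is the one that does not climb from DN1 to DN2.

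The genotypes stood furthest apart at DN1, where the members were lowest in WT cells. After each gene's mean over the 12 non-leukemic arrays was subtracted, the median of the G1/S genes at DN1 was -1.78 in WT, -0.91 in Ezh2-deleted, -0.22 in p53-deleted and -0.17 in double-deleted cells. For the G2/M genes it was -2.05, -0.90, 0.17 and 0.06. The WT DN1 array was the lowest of the 12 for 29 of 37 members, 12 of 16 G1/S and 17 of 21 G2/M genes, against 19.6% of features. The exceptions were Cdc45, Cdt1, Pcna, Tyms, Cdk1, Aurkb, Cenpa and Ttk. Against WT DN1 cells, 23 of 37 members were over 2-fold higher in Ezh2-deleted (17.2% of features), 28 in p53-deleted (20.2%) and 32 in double-deleted DN1 cells (12.5%), with medians of 1.23, 1.96 and 1.93. These are single arrays on different slides, and slide and genotype cannot be told apart. Foxm1, the transcription factor of mitotic genes, was at -1.18 on the WT DN1 array and at 0.66, 1.74 and 1.17 on the DN1 arrays of Ezh2-deleted, then p53-deleted, then double-deleted cells. Mean NK marker levels at DN1 were 3.58 in WT, 4.87 in Ezh2-deleted, 3.52 in p53-deleted and 1.89 in double-deleted cells, and their part in these differences was not tested.

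**Figure D4:**
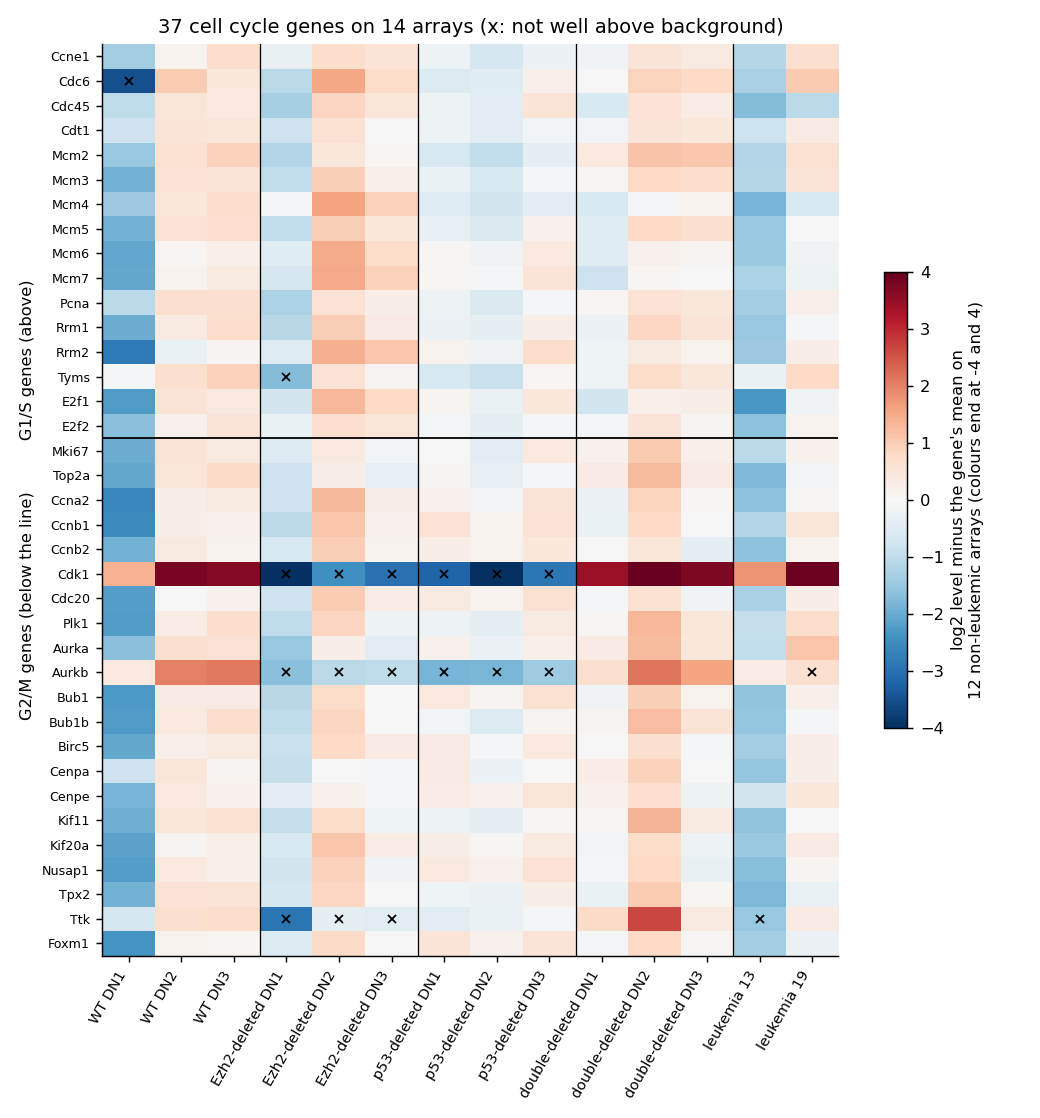
Log2 level of each of the 37 tested genes on the 14 arrays, minus the gene's mean on the 12 non-leukemic arrays; colours end at -4 and 4, and x marks a spot of the probe used that was not well above background. The WT DN1 column is blue for most genes, Cdk1 and Aurkb are marked on all 6 slide 2 arrays, and leukemia 13 is bluer than leukemia 19.

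From DN2 to DN3 the direction differed between genotypes, and no member passed the test. In WT cells the median DN3 minus DN2 difference was 0.09, with 20 of 37 members higher at DN3. In p53-deleted cells all 37 were higher, with a median of 0.48. In Ezh2-deleted cells 36 of 37 were lower, with a median of -0.63, and in double-deleted cells 35 of 37 were lower, with a median of -0.68. Shares of all features are not given for these counts within a genotype. The differences use the same DN2 arrays as the DN1 to DN2 differences, so they are not independent of those. In double-deleted cells the G2/M genes were lower (median -0.85) and the G1/S genes little different (median -0.12), both arrays being on slide 1. In Ezh2-deleted cells the medians were -0.77 and -0.55. Of the 37, 34 were lower at DN3 in both Ezh2-deleted and double-deleted cells, all but Mcm4, E2f1 and Aurkb, against 31.2% of features. Higher in WT and p53-deleted cells and lower in both of those genotypes were 18 of 37, 9 of each phase, against 8.02% of features.

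Ttk showed the widest DN2 to DN3 difference, at -1.67, 0.24 and -2.10 in double-deleted cells at DN1, DN2 and DN3, a difference of -2.33, though it lay at -2.86, -2.70 and -2.53 in p53-deleted and -3.12, -1.81 and -1.74 in WT cells and below background in Ezh2-deleted cells. Its double-deleted DN2 level was the highest of the 12 arrays. Nusap1, a spindle microtubule protein, was at 4.24 and 3.19 in Ezh2-deleted DN2 and DN3 cells and at 4.14 and 3.03 in double-deleted cells, but at 3.71 and 3.55 in WT and 3.51 and 3.90 in p53-deleted cells. Over all 4 genotypes limma called 0 of 37 members (0.0222% of features), with 0 also at an unadjusted p under 0.05 (6.37% of features). For Ttk the difference was -0.54 ± 0.50. The interaction of Ezh2 with the DN2 to DN3 step was negative for 37 of 37 members, with medians of -0.68 (G1/S) and -1.04 (G2/M) against -0.10 over all features. None of the 37 was called in it by limma, 0 also at an unadjusted p under 0.05, and its median ran from -1.63 to -0.09 when single arrays were left out. The median without the p53-deleted DN2 array was -0.09.

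Against DN1, DN3 cells had higher levels of all 37 members, by a median of 0.96. Limma called 0 of 37 (2.58% of features were called higher), and 21 of 37 were higher at an unadjusted p under 0.05, 15 of 16 G1/S but 6 of 21 G2/M genes, against 17.0% of features. The difference between the phases was not tested. Cdc45 came nearest, at 1.23 ± 0.34 (adjusted p = 0.0617). Without the p53-deleted DN1 array 20 were called, without their DN2 array 3, and without all 3 p53-deleted arrays 10. The share of all features in these refits is not given, so these counts cannot be read as particular to the members. Cdkn1a rose by 2.92 ± 0.28 (limma adjusted p = 0.00107).

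Double-deleted and WT cells were compared first within slide 1, at DN2 and DN3. At DN2 the G2/M genes were higher in double-deleted cells in 21 of 21 cases, with a median of 0.59, and the G1/S genes in 11 of 16, with a median of 0.09. At DN3 32 of 37 members were lower in double-deleted cells, with a median of -0.20. Shares of all features are not given for these counts by direction, nor for the signs of the fitted estimates below. The medians over all features were -0.19 at DN2 and -0.22 at DN3, so the DN3 median lay near that of all features. Aurka, a centrosome kinase, was at 4.11 and 4.03 in WT DN2 and DN3 cells and at 4.73 and 3.88 in double-deleted cells. Bub1b, the checkpoint kinase BUBR1, was at 1.70 and 2.01 in WT and at 2.55 and 1.86 in double-deleted cells. In the fit over 3 stages 0 of 37 were called (limma, 7.48% of features), 0 at an unadjusted p under 0.05 (27.7% of features), and 34 of 37 had positive estimates with a median of 0.69. Rrm2 had 1.1 ± 0.54 (limma adjusted p = 0.222) and Foxm1 1.00 ± 0.51 (adjusted p = 0.241). Without the WT DN1 array the median was 0.14. For 0 of 37 members did all 3 double-deleted arrays lie above all 3 WT arrays, against 9.11% of features.

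Ezh2-deleted and p53-deleted cells shared slide 2. At DN2, 23 of 37 members were over 2-fold higher in Ezh2-deleted cells, all 16 G1/S genes and 7 of 21 G2/M genes, against 14.9% of features, with a median of 1.51 for G1/S and 0.85 for G2/M. At DN1 35 of 37 were lower in Ezh2-deleted cells, with a median of -0.85, and at DN3 the medians were 0.36 for G1/S and -0.29 for G2/M genes. Mcm4, a helicase subunit, was at 5.09, 6.77 and 6.09 in Ezh2-deleted and at 4.67, 4.45 and 4.76 in p53-deleted cells at DN1, DN2 and DN3. It was the only member for which the 3 arrays of each genotype did not overlap in this direction, which 10.9% of features did. In the fit limma called 0 of 37 (3.92% of features), and 1 of 37 was higher at an unadjusted p under 0.05 (10.5% of features), Mcm4 at 1.36 ± 0.42 (adjusted p = 0.119). Without the p53-deleted DN1 array it was called, at 1.82. All 16 G1/S estimates were positive, with a median of 0.40, and 14 of 21 G2/M estimates were negative, with a median of -0.14. The highest of the 12 levels fell on the Ezh2-deleted DN2 array for 12 of 16 G1/S and 7 of 21 G2/M genes, and on the double-deleted DN2 array for 1 G1/S and 14 G2/M genes. Shares of all features are not given for the count at DN1, the signs of the estimates or the counts of highest arrays. The sex of the cells differed between these genotypes.

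Calls between genotypes on different slides fell on few members, and mostly on probes that were below background on slide 2. Cdk1 was at 0.30, 2.73 and 2.61 in WT DN1, DN2 and DN3 cells and at 2.39, 3.29 and 2.65 in double-deleted cells, and the probe used was below background on all 6 slide 2 arrays. Against WT cells, it was at least 51.5-fold lower in p53-deleted cells (limma adjusted p = 8.5e-05) and at least 41.1-fold lower in Ezh2-deleted cells (9.6e-05). Double-deleted cells were at least 95.9-fold above p53-deleted cells (5.0e-05) and at least 76.5-fold above Ezh2-deleted cells (5.7e-05). These bounds hold for the probe used, while the Cdk1 probe above background on 13 of 14 arrays was brighter on slide 2, so slide and genotype cannot be told apart. In a bound, each array of the dimmer group counts at its lowest signal above background, or at the probe's own signal where that is higher. The adjusted p beside a bound comes from the fit of measured signals, including those below background, and is not a test of the bound. This also holds for Aurkb and Ttk below.

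For Aurkb the bounds were at least 3.07-fold and 2.45-fold lower in p53-deleted and Ezh2-deleted than in WT cells and at least 2.94-fold and 2.35-fold higher in double-deleted than in p53-deleted and Ezh2-deleted cells (limma adjusted p between 0.000149 and 0.000624). With normexp background correction the difference from WT was -0.17 in p53-deleted and 0.03 in Ezh2-deleted cells, and the 2 differences of double-deleted cells were -0.21 and -0.42, so that 3 of the 4 directions turned. Ttk was at least 3.75-fold higher in double-deleted than in Ezh2-deleted cells (adjusted p = 0.0127) and differed by 0.19, with no call, under that correction. The call was also lost without the double-deleted DN1 array (2.30) or DN2 array (2.01). Of members above background on all arrays, Rrm2 was 1.64 ± 0.54 higher in Ezh2-deleted than WT cells (limma adjusted p = 0.0425), a call lost when any of 8 arrays was left out (WT DN1 or DN2, any of the 3 Ezh2-deleted arrays, p53-deleted DN3, double-deleted DN2 or DN3), with values of 0.99 to 1.90. Mcm2, a helicase subunit, was at 3.77, 4.54 and 4.48 in double-deleted and 2.76, 2.40 and 3.01 in p53-deleted cells at DN1, DN2 and DN3. Its 3 arrays did not overlap between the groups, as for 11 of 37 members and 23.1% of features, and it was 1.54 ± 0.45 higher in double-deleted cells (limma adjusted p = 0.0301), a call lost without p53-deleted DN2 (1.12) or DN3 (1.45) or any of the 3 double-deleted arrays (1.38 to 1.68).

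The counts behind these calls were small beside those of all features. Against WT cells limma called 2 of 37 members lower in p53-deleted cells (20.6% of features), and 1 higher and 2 lower in Ezh2-deleted cells (15.6% and 18.5%). In double-deleted cells 3 were called against p53-deleted cells (31.2% of features in either direction) and 3 against Ezh2-deleted cells (30.1%), all higher. The Ezh2 by p53 interaction was called positive for 4 of 37 (21.3%), Aurkb, Cdk1, Ttk and Tyms, and it sets arrays of slides 1 and 3 against those of slide 2. Cdkn1a was lower in p53-deleted than in WT cells, with a difference of -0.93 ± 0.32 (limma adjusted p = 0.0494), and higher in Ezh2-deleted than p53-deleted cells, within slide 2, by 1.43 ± 0.32 (adjusted p = 0.0447). Cdkn2a, which encodes p16 and p19Arf, was below background at WT DN2 and DN3 and at 5.24 and 4.60 in double-deleted DN2 and DN3 cells of the same slide.

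The leukemias differed from each other in nearly every member. Leukemia 13 was below leukemia 19 for 37 of 37 members (49.2% of features), by a median of 1.66 on the log2 scale, a ratio of 3.16, and leukemia 19 was over 2-fold higher for 35 of 37 (9.21% of features). The differences ran from 0.35 for Aurkb, below background in leukemia 19, to 2.34 for Cdc6. Against double-deleted DN2 cells, 36 of 37 members were over 2-fold lower in leukemia 13 (13.7% of features), by a median of -2.21, a ratio of 0.216. In leukemia 19, 8 of 37 were over 2-fold lower (11.1% of features), 1 G1/S and 7 G2/M genes, with a median of -0.45. Both leukemias shared slide 4, and the slide separated them from the other double-deleted cells, so slide and leukemia cannot be told apart there. Each leukemia was 1 mouse, with no replicate.

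**Figure D5:**
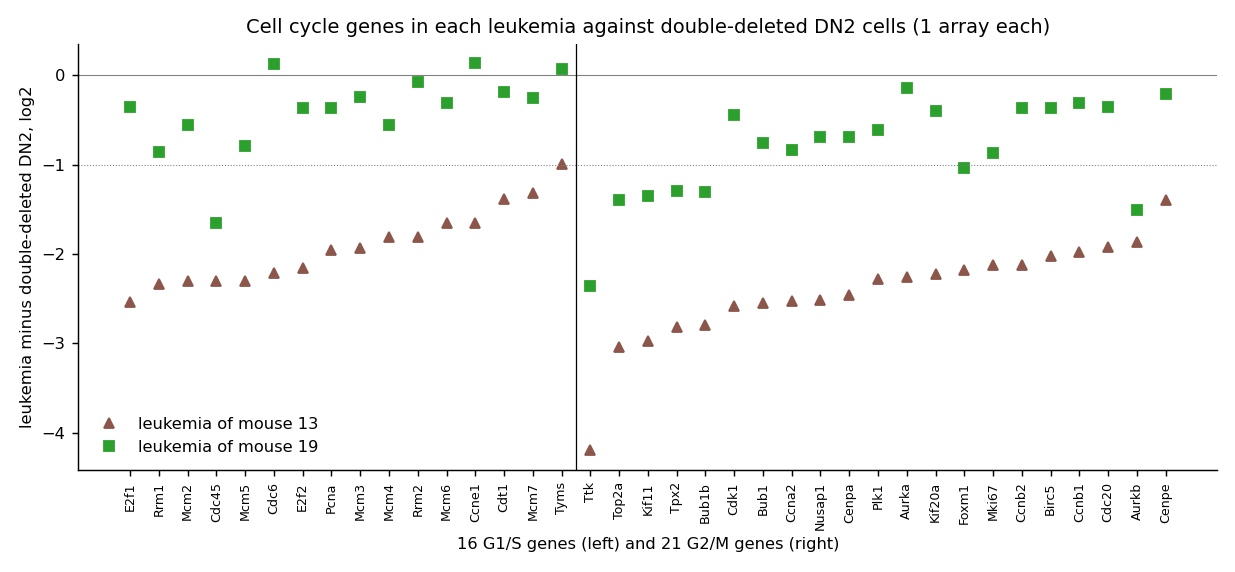
Log2 level of each member in leukemia 13 (triangles) and leukemia 19 (squares) minus that in double-deleted DN2 cells, 1 array each, with G1/S genes left and G2/M genes right of the line; the dotted line marks 2-fold lower. The triangles lie between -4.20 (Ttk, below background in leukemia 13) and -1.0, and the squares between -2.36 and 0.13.

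Leukemia 13 was below all 3 double-deleted stages for 37 of 37 members (32.3% of features). It was below all 12 non-leukemic arrays for 6 of 37, Cdc45, Cdt1, Mcm4, Pcna, E2f1 and Cenpa, not far from the share of all features (11.1%). E2f1 was at 0.38 in leukemia 13 and 2.56 in leukemia 19, against 1.96, 2.92 and 2.94 in double-deleted cells at DN1, DN2 and DN3. Mki67 was at 4.46 and 5.71 in leukemias 13 and 19, and Ccnb1 at 2.38 and 4.05, each with leukemia 19 inside the range of the 3 double-deleted stages and leukemia 13 outside it. Both leukemias were below the 3 double-deleted stages for 8 of 37 members, Cdc45, Mcm4, Top2a, Bub1b, Kif11, Tpx2, Ttk and Foxm1, against 18.1% of features. This count is near the share of all features, so the trait is not particular to the members. Cdc45 was at -2.45 and -1.80 in leukemias 13 and 19, against -1.35, -0.15 and -0.42 in double-deleted cells at DN1, DN2 and DN3. Top2a, the topoisomerase that untangles chromosomes before mitosis, was at 1.33 and 2.97, against 3.42, 4.37 and 3.41. Foxm1 was at -0.14 and 1.00, against 1.17, 2.03 and 1.27, but its second probe ordered the leukemias the other way, at -1.27 and -3.36.

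When both leukemias were fitted against DN2 cells of their genotype, as estimated from additive genotype and stage terms, limma called 0 of 37 members (0.946% of features were called lower). At an unadjusted p under 0.05, 12 were lower, 4 G1/S and 8 G2/M genes, against 8.48% of features, and all 37 estimates were negative, with a median of -1.30. Cdc45 differed by -1.85 ± 0.48 (95% interval -2.93 to -0.77, limma adjusted p = 0.0854), Ttk, below background in leukemia 13 and on the 3 Ezh2-deleted arrays, by -2.54 ± 0.80 (0.138) and Top2a by -2.02 ± 0.76 (0.206). Cdc45 was called without the p53-deleted DN1 array (-1.96) or DN2 array (-2.11). Without leukemia 13 the median was -0.46, and without leukemia 19 it was -2.12. Against double-deleted DN1 cells the median was -0.22, with 0 of 37 called and 0 at an unadjusted p under 0.05. Without leukemia 13 that median was 0.66 and without leukemia 19 it was -1.0, so its sign depended on the mouse. Of other mitotic genes 11 of 32, and of other replication genes 5 of 25, were lower than DN2 at an unadjusted p under 0.05, with medians of -1.33 and -1.08, and 0 of either list were called.

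Cdkn1a was at 0.99 in leukemia 13 and 2.03 in leukemia 19, against -0.01, 1.81 and 2.49 in double-deleted cells at DN1, DN2 and DN3, so it was lower in the leukemia with the lower members. Its difference from double-deleted DN2 cells was -0.75 ± 0.44 (limma adjusted p = 0.405). Early T cell markers were above background for 9 of 10 in leukemia 13 and 10 of 10 in leukemia 19, Il2ra was at 6.55 and 6.20, and the dendritic cell markers had means of 5.0 over 4 measured genes and 3.66 over 5. Of the 8 NK markers, 3 were above background in each leukemia. The part of other cells in the leukemic samples was not tested.

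Members grouped by promoter motif had similar stage differences. In WT cells the median DN2 minus DN1 difference was 2.21 for the 7 members with an E2F motif, 2.27 for the 16 with CHR and CCAAT motifs, 2.36 for the 11 with neither E2F nor CHR and 2.37 for 6 with no window. In p53-deleted cells the medians were -0.25, -0.28, -0.28 and -0.20. Cdk1, Mcm7 and E2f2 belong to the first 2 groups, the last through different windows, so these groups share members and no test was made between them.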

How the data were processed

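RNA of 14 sorted cell samples was hybridised to Agilent 1-colour mouse arrays. Per the file headers, the authors read the scans with Feature Extraction 10.7.1.1, which subtracted background, removed spatial trends, replaced the values of dim spots by a small positive number and left arrays unscaled, giving the deposited processed intensity of each spot. The deposited value table matched these intensities up to 1 constant per array; its making is not described in the labels or headers. The array grid is annotated on mm9, so no array coordinates are used.

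Here, spots of a probe were averaged (59305 non-control spots, 55681 probes) and log2 of the intensity was taken relative to the array's 75th percentile. Symbols came from RefSeq accessions matched to the GRCm38.p6 gene table (27656 probes with a symbol, 28025 without). A probe was tested if well above background on at least 2 arrays.

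With limma 3.58.1 in R 4.3.3, additive terms for stage and genotype were fitted over the 12 arrays of non-leukemic cells (6 residual degrees of freedom, 7 with the leukemias, 4 with a step interaction), in 16 comparisons, each with Benjamini-Hochberg adjustment over its 27056 features at a threshold of 0.05. The fit was tested on simulated data with 50 features changed by 1 and 50 by 2 on the log2 scale. It called 10 and 34 of these for DN2 minus DN1, and 7 and 25 for double-deleted minus WT. For the leukemias minus DN2 it called 3 and 21, and for the p53 by DN1 to DN2 interaction 0 and 0. The simulated spread was always the residual spread of the additive fit over the 12 non-leukemic arrays. It includes any dependence of a step on p53 and leaves out the spread between the leukemias. Calls may thus be understated for the interaction and overstated for the leukemias. A count of 0 members called therefore does not show that changes of these sizes were absent. The labels do not name separate mice, and no array of the non-leukemic cells was repeated. A p therefore rests on what the fitted terms leave over. In that remainder, differences in stage steps between genotypes that the terms leave out cannot be told apart from noise. Such differences widen the spread behind a p, and the number of arrays limits the precision. All 38 members may be named. Of other genes, Cdkn1a, Cdkn2a, Trp53, Ezh2, called genes of the pathway lists and markers beside a result are named. Members, lists and tests were chosen with earlier results of these data known. Where a count of members by direction has no share of all features beside it, it cannot be read as particular to the members. Alternatives covered scaling, background correction, the authors' table, the filter, the probe rule, slide and single arrays.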

Additional observations from a re-analysis of the deposited data

Results flagged for a closer look

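For 4 members the Ezh2 by p53 interaction was called, that is, the difference made by Ezh2 deletion differed with p53 status (limma, adjusted p under 0.05). The estimates were 13.62 for Cdk1, 5.92 for Aurkb, 2.98 for Ttk and 1.67 for Tyms on the log2 scale. The probes used for Cdk1 and Aurkb were below background on all 6 arrays of the Ezh2-deleted and p53-deleted cells. The Ttk probe was below background on the 3 Ezh2-deleted arrays, so the estimates for these genes are not bounds. Another Cdk1 probe was above background on 13 of 14 arrays. The Tyms call was lost when any of 10 of the 12 arrays was left out, with values of 1.19 to 1.85. The contrast sets the slides of WT and double-deleted cells against the slide of the other genotypes, and slide and interaction cannot be told apart.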

How the results depend on the processing

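No paired analysis was possible because each genotype and stage has 1 array and the leukemias are numbered by mouse, 13 and 19, so the groups share fewer than 2 replicate numbers. Each value was recomputed under the alternatives. Shares of all features called under the alternatives are not given, so the counts of called members below cannot be read as particular to the members. Of the counts and medians, 669 alternative values stayed within the stated margins and 41 moved. Of the single-gene values, 676 kept their side of the threshold and direction, 25 passed it, 39 lost it and 6 turned. The cause was not tested.

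Within slide 1, DN2 minus DN1 had a median of 2.5 and DN3 minus DN1 a median of 2.22. Slide 1 held 1 DN1 array, that of WT cells, so calls within it are not given. There Cdc6 differed by 4.43 from DN1 to DN2, with a probe below background on that DN1 array. The second Cdc6 probe differed by 3.03 between WT DN1 and DN2 cells. Without the 3 p53-deleted arrays, chosen after seeing the data, 22 members were called for DN2 minus DN1, 10 for DN3 minus DN1, 5 for Ezh2-deleted minus WT and 1 (Cdc45) for the leukemias minus DN2. With normexp, 3 were called for DN3 minus DN1, 7 for double-deleted minus p53-deleted, 9 for double-deleted minus Ezh2-deleted, 7 for the Ezh2 by p53 interaction and 1 (Cdc45) for the leukemias minus DN2. Among probes above background on all 14 arrays, 7 were called for DN3 minus DN1 and 1 for p53-deleted minus WT. With slide as a random block, 4 were called for p53-deleted minus WT, 6 for Ezh2-deleted minus WT, 8 for the interaction and 1 (Cdc45) for the leukemias minus DN2. With quantile normalization, 6 were called for Ezh2-deleted minus WT and 6 for double-deleted minus Ezh2-deleted, where the 75th percentile over detected probes gave 5.

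Leaving out single arrays gave 0 to 17 calls for DN2 minus DN1, 0 to 20 for DN3 minus DN1, 2 to 5 for Ezh2-deleted minus WT, 2 to 5 for double-deleted minus Ezh2-deleted, 0 to 1 for Ezh2-deleted minus p53-deleted and 0 to 1 for the leukemias minus DN2. Medians then ran from -2.12 to -0.46 for the leukemias minus DN2, from -1.0 to 0.66 for the leukemias minus DN1, and from -0.88 to 1.45 and -1.63 to -0.09 for the Ezh2 interaction with the DN1 to DN2 and DN2 to DN3 steps.

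The direction of Ttk turned for DN3 minus DN2 within slide 2 (0.05). With normexp, that of Aurkb turned for Ezh2-deleted minus WT (0.03), double-deleted minus p53-deleted (-0.21), double-deleted minus Ezh2-deleted (-0.42) and the interaction (-0.25). Tyms turned with normexp for the interaction (-0.12). Normexp here added 50 to each spot before scaling, which raised dim probes more on slide 2. The directions that turned with normexp cannot be told apart from this. Probes below background on some arrays limit Cdk1, Aurkb, Ttk, Cdc6 and Tyms, and with 1 array per genotype and stage no spread within a group was measured.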
